A study of Mus musculus with 6 samples.

Results

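Cancer cells of the mouse that carry the rat her-2/neu oncogene were profiled without any agent on 3 bead arrays, out of 6 in the series. The 3 arrays were chosen by the label that names no agent. On the other 3 arrays the cells had received withaferin A, a steroidal lactone from a plant, at 8 µM for 6 h; these are used below only to ask whether differences between replicate numbers recur. All 6 samples were grown in medium with 20% serum, at passages 2, 3 and 4. Which passage belongs to which replicate number is not labelled, and the labels do not name the tissue or the mouse strain from which the cells came. Separate cultures are described only through the passages, so the spread given here may be partly technical.

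The her-2/neu gene encodes ErbB2, a receptor tyrosine kinase of the epidermal growth factor receptor family that has no known ligand and signals by pairing with other ErbB receptors. When it is overexpressed it drives growth of epithelial cells, and rat neu transgenes are a classical way to produce carcinomas in mice. Carcinoma cells in culture often keep simple keratins while they lose some junction proteins and gain genes of mesenchymal cells.

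A gene was called expressed when its brightest probe had a detection score above 0.95, that is a detection p under 0.05, on all 3 untreated arrays. It was called silent when no probe of the gene passed that score on any of them. Of 19057 genes with a probe of their own, 9141 were expressed (48%), 8458 were silent and 1458 lay between. Counts of expressed list members below are to be read beside this 48%. Between 18608 and 20104 of the 45281 probes were detected per untreated array. Levels are given as normalized log2 intensity, in the order of arrays 1, 2 and 3. Expressed genes had a median level of 8.18, with the 10th and 90th percentiles at 5.64 and 11.02, against 4.49 for silent genes. Probes differ in how strongly they bind, so a difference in brightness between genes is a description of the arrays and no measure of relative copy number. A silent call is a bound set by 1 probe in many genes: Canx, Rps20, Rps23, Akt1 and Sdha, which most cells use, were all silent here.

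**Figure D1:**
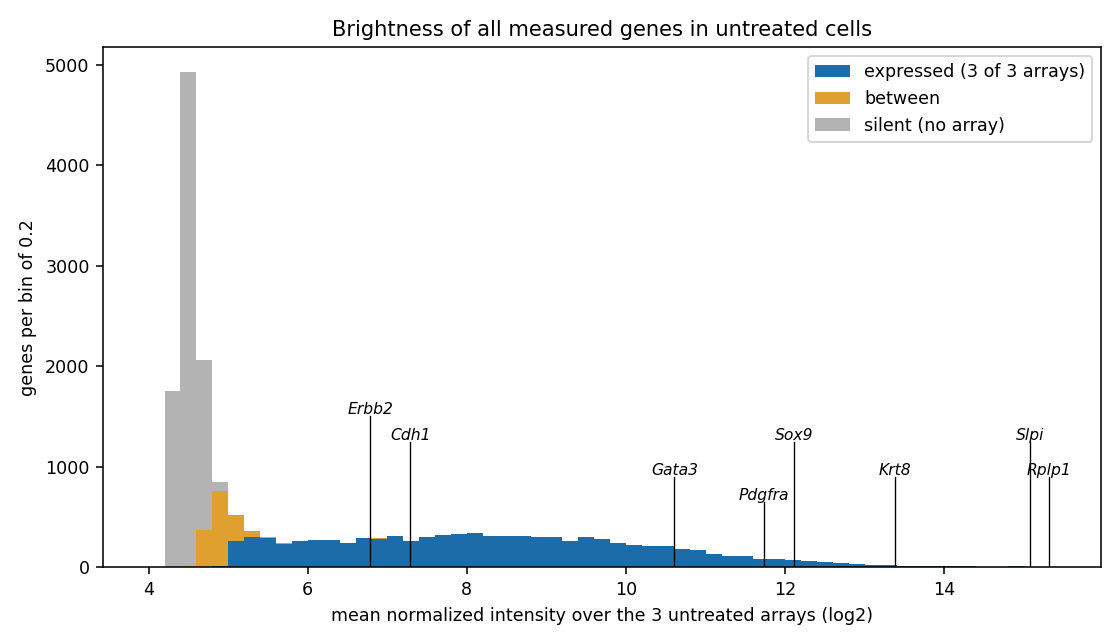
Number of genes by mean normalized intensity (log2, x axis) over the 3 untreated arrays, in bins of 0.2, stacked by call (expressed on 3 of 3 arrays, between, silent on every array), with 8 genes marked. Silent genes form a narrow peak near 4.49, and expressed genes spread from 4.94 to 15.32.

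The markers chosen for these cells, called label markers below, showed simple keratins and vimentin together, with a dim Erbb2 signal and no Epcam. Vim, the intermediate filament of mesenchymal cells, had raw intensities of 12493.3, 10258.2 and 12027.7 (log2 13.44, 13.30 and 13.57). Krt8 had log2 levels of 13.54, 13.09 and 13.49, and its partner in simple epithelium, Krt18, had 12.13, 12.29 and 12.08. All 3 genes were in the brightest decile of the expressed genes, and none of them varied by 2-fold between the arrays. The levels of Krt8 and Vim rest on the brighter probe of each gene. Another Krt8 probe was not detected on any array (4.37, 4.45 and 4.42), and another Vim probe read 6.13, 5.39 and 6.13. Erbb2 read 194.7, 186.6 and 156.3 in raw intensity (log2 6.93, 6.83 and 6.59), above background on each array but below the median expressed gene. Its single probe was designed for the mouse gene, and how well it reads the rat transcript cannot be told from the files. Epcam, a surface protein of most epithelia, had a raw intensity of 72.9, 71.1 and 65.7 and passed the detection score on no array. It also has 1 probe. Of the epithelial markers chosen, which the sample labels do not name, the keratins were expressed and Epcam was not.

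The promoter of Vim is shown because the gene is among the brightest of the label markers and carries a TATA box. The 250 bases before its RefSeq start in build GRCm38.p6 are printed 5′ to 3′, with TATAAA in capitals.
Vim (chr2:13574061-13574310, plus strand): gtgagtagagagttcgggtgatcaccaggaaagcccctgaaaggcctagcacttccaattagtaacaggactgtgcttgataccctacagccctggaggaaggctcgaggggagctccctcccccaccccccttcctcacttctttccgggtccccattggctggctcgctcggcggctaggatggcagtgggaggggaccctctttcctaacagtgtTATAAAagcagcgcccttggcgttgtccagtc
TATAAA, searched on both strands, stood in 10.8% of the 18684 windows of this length (15207 genes), in 6.30% of the 9586 windows of expressed genes and in 16.6% of the 7669 windows of silent genes. The windows of Krt8, Krt18, Axl and Slpi hold no TATAAA. Windows of expressed genes had a median of 60% G and C, against 51.2% for silent genes, and a median CpG ratio (observed over expected) of 0.740, against 0.297. A CpG ratio above 0.6 was found in 68.2% of the windows of expressed genes and in 24.7% of those of silent genes. These shares describe the windows, several of which can belong to 1 gene.

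**Figure D2:**
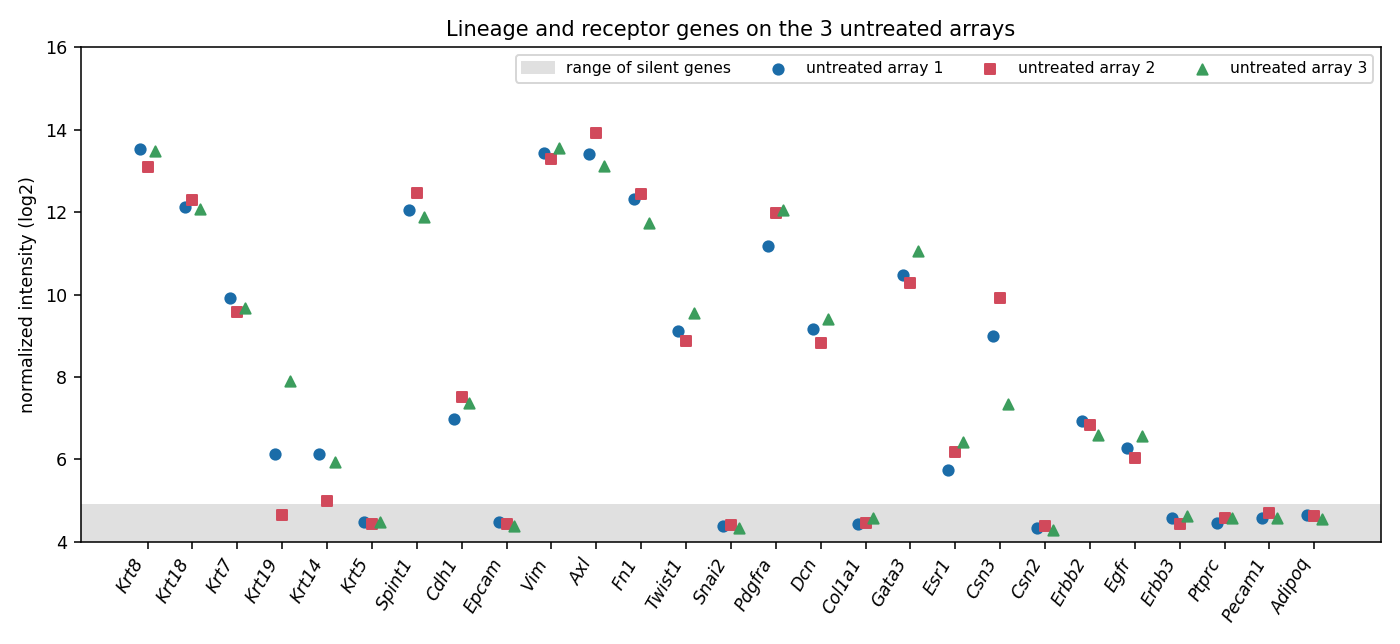
Normalized intensity (log2, y axis) of 27 lineage and receptor genes on untreated arrays 1, 2 and 3, 1 point per array, with the range of silent genes shaded. Keratins 8 and 18, Vim, Axl and Fn1 lie above 11 on all 3 arrays, and Epcam, Krt5, Col1a1, Erbb3, Ptprc, Pecam1 and Adipoq lie in the shaded range.

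The brightest genes belonged to translation, iron storage and secretion. Among the 20 brightest genes, 13 encode cytosolic ribosomal proteins, led by Rplp1 at 15.34, 15.34 and 15.27 and Rpl9 at 15.31, 15.23 and 15.31. Eef1a1, the elongation factor that brings tRNAs to the ribosome, ranked among the first 3. Fth1, the heavy chain of ferritin, read 15.23, 15.12 and 15.15. Slpi, a secreted inhibitor of leukocyte proteases, ranked 8th with 15.08, 15.04 and 15.10, the brightest classical secreted protein gene among the 20. Ppia (cyclophilin A), the mitochondrial transcripts CYTB and ND4, and Lgals1 (galectin-1, at 14.82, 14.80 and 14.88) complete the 20. Of 59 measured ribosomal protein genes, 50 were expressed and 47 of those were in the brightest decile; 65 of 74 oxidative phosphorylation subunits were expressed, 35 in the brightest decile. Wfdc2, a secreted relative of Slpi named after its level was seen, read 14.59, 14.72 and 14.33.

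Keratins of simple epithelium were expressed and those of basal and stratified epithelium were mostly not. Krt7, a further keratin of simple ducts, had levels of 9.92, 9.59 and 9.68. Krt19 did not behave like the others: it read 6.14, 4.65 and 7.91 and was not detected on array 2. Of 7 basal keratins 1 was expressed, Krt14 at 6.13, 5.0 and 5.95, while Krt5, Krt17, Krt6a and Krt6b were silent and Krt15 and Krt16 lay between. At a score above 0.99 no basal keratin remained expressed. Among 7 myoepithelial genes, Mylk (myosin light chain kinase; 9.91, 9.24 and 9.83) and Trp63 (the p63 transcription factor; 5.84, 6.52 and 6.54) were expressed, Acta2 lay between, and Cnn1, Oxtr, Tagln and Myh11 were silent. Krt10 (9.28, 9.18 and 9.24) and Sprr2a1 (7.82, 7.90 and 8.29) were expressed among 6 genes of cornified skin, and Krt1, Ivl, Lor and Sprr1a were silent.

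Junction and identity genes of epithelium were largely expressed but dim. Of 29 such genes, 21 were expressed (72.4%, against 48% of all genes), with a median level of 6.92. Spint1, a membrane-bound inhibitor of serine proteases, stood far above the rest with 12.05, 12.46 and 11.89, the only member in the brightest decile. Lsr, a protein of tricellular junctions, read 8.39, 8.38 and 8.85. Cldn3 read 8.31, 8.41 and 7.78, Grhl2, a transcription factor of epithelial identity, 8.01, 7.98 and 8.39, and Pkp3, a desmosome protein, 7.87, 8.14 and 8.11. Cdh1, the adhesion molecule E-cadherin, read 6.98, 7.51 and 7.37, below the median expressed gene. Another Cdh1 probe was not detected on any array (4.54, 4.47 and 4.46). Cldn4 was the only member to vary over 2-fold between the arrays, with 6.26, 8.10 and 6.40. Rab25, Ovol1, Tjp3 and Marveld2 were silent with Epcam.

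Mesenchymal genes were expressed alongside them, in part at high level. Of 17 genes in that list 12 were expressed, with a median of 9.05. Axl, a receptor tyrosine kinase bound by Gas6, was the brightest at 13.41, 13.91 and 13.13, though its other probe read 5.89, 5.74 and 5.61. Fn1 (fibronectin) read 12.32, 12.43 and 11.73 and Sparc, a matrix-binding secreted protein, 11.07, 10.78 and 11.20. Among transcription factors that repress epithelial genes, Twist1 (9.12, 8.87 and 9.56), Zeb2 (8.61, 9.03 and 9.11), Snai1 (8.88, 8.36 and 9.16) and Zeb1 (6.07, 6.07 and 5.46) were expressed, and Snai2 and Twist2 were silent. Cdh2, N-cadherin, was detected near background at 5.59, 5.37 and 4.97. S100a4, a calcium-binding protein of motile cells, had 10.60, 9.16 and 10.72, lowest on array 2.

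Marker lists of other cell types were mostly silent. Of 12 fibroblast markers, 10 were silent, namely Col1a1, Col1a2, Col3a1, Pdgfrb, Lum, Thy1, Fap, Pdpn, Postn and Dpt; Pdgfra (11.18, 11.97 and 12.04) and Dcn (decorin; 9.16, 8.82 and 9.41) were the exceptions. The summed level of that list was 65.3, 65.9 and 66.4 on the 3 arrays. This sum and those below add the log2 levels of all measured members, silent ones at background included. With most members silent, such sums largely reflect background and say little about other cells. Of 21 leukocyte markers 17 were silent, Ptprc, Cd3e, Itgam and Lyz2 among them, and Cd14 (8.64, 8.44 and 8.94), S100a8 (9.01, 7.33 and 7.91) and Coro1a (5.10, 5.17 and 5.29) were expressed. The leukocyte sum was 103.7, 101.9 and 102.6. Of 12 endothelial markers, Egfl7 (8.11, 8.24 and 7.52) and Plvap (7.04, 6.79 and 6.94) were expressed, while Pecam1, Cdh5, Tek, Vwf, Emcn, Erg and Cldn5 were silent and Esam, Kdr and Tie1 lay between; the sum was 61.7, 61.4 and 59.9. None of 7 adipocyte markers was expressed (sums of 31.6, 31.6 and 32.0), with Adipoq, Plin1, Fabp4, Retn and Cidec silent and Lep and Pparg between. In a bulk culture, a small number of other cells and low expression in the cancer cells cannot be told apart, and the part of other cells in these values was not tested.

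Genes of mammary lineage gave a divided picture. Of 17 genes in the list 5 were expressed and 11 were silent. Gata3, a transcription factor of luminal mammary cells and of T cells, read 10.48, 10.27 and 11.06. Csn3, which encodes kappa-casein, was detected on every array at 9.0, 9.91 and 7.35, lowest on array 3. A further Csn3 probe read 8.82, 9.63 and 7.08, and another was not detected on any array (4.68, 4.86 and 4.52). The other milk genes Csn2, Csn1s1, Csn1s2a, Wap, Lalba and Glycam1 were all silent. Tfap2c (7.87, 7.58 and 7.51), Stat5a (7.22, 7.28 and 7.85) and Esr1, the estrogen receptor (5.74, 6.19 and 6.42), were expressed at lower levels, and Elf5, Pgr and Kit were silent. Of 13 genes associated with progenitor cells 7 were expressed (53.8%, near the 48% of all genes). Sox9 (11.82, 12.49 and 12.02), a transcription factor of ductal progenitors, and Cd44 (11.77, 11.24 and 11.03), a hyaluronan receptor, were the brightest, and Aldh1a1, Aldh1a3, Lgr5, Sox2 and Sox10 were silent. Of 13 hepatocyte genes 1 was expressed, Hnf4a at 5.42, 5.63 and 5.29, with Alb and Ttr silent. Mbp (7.84, 8.20 and 7.84) was the expressed member of 10 neural genes; Syp lay between, and Gfap, Gad1, Gad2, Neurod1, Olig2, Syt1, Snap25 and Slc17a7 were silent. Myog (5.01, 4.94 and 5.04) was that of 10 muscle genes, with Des and Tnnt3 between and Ckm, Acta1, Actc1, Myod1, Myh1, Myh4 and Myh6 silent. No erythroid gene of 4 was expressed (Klf1 and Epor between, Hba-a1 and Alas2 silent). No germline or pluripotency gene of 10 was expressed: Pou5f1, Dppa5a and Ddx4 lay between, and Nanog, Lin28a, Zfp42, Tdgf1, Dazl, Sycp3 and Zp3 were silent.

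**Figure D3:**
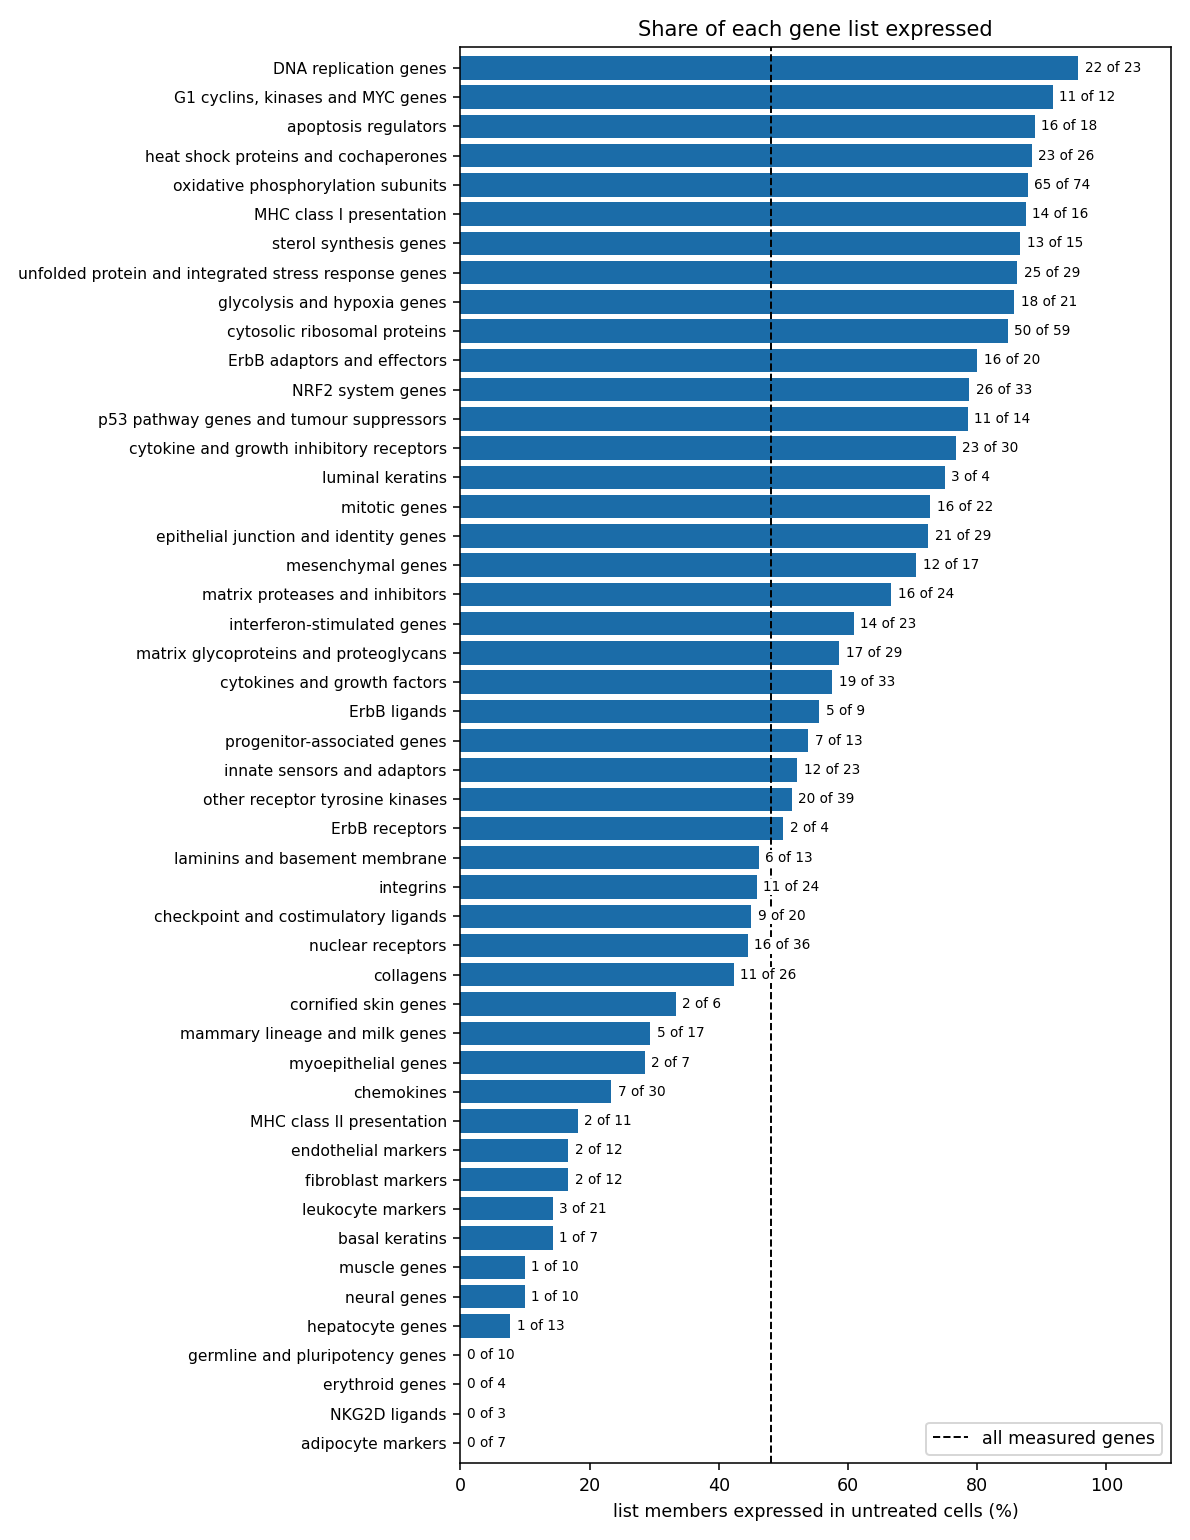
Percentage of the measured members of 48 gene lists that were expressed in untreated cells (bars, x axis), with the count beside each bar and the share over all measured genes as a dashed line at 48%. Replication, cell cycle, apoptosis, chaperone and respiration lists lie far right of the line, and lists of other cell types lie left of it.

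Of the ErbB receptors only Erbb2 and Egfr were expressed, both dim. Egfr, which binds EGF and its relatives, read 6.27, 6.03 and 6.56; of its 6 probes, 3 were detected on all 3 arrays. Erbb3 and Erbb4, the neuregulin receptors that pair with ErbB2, were silent. Among 9 ligands, Hbegf, which binds Egfr and Erbb4, was the brightest with 10.06, 9.02 and 9.75. Epgn (6.99, 5.52 and 6.77), Nrg1 (6.51, 5.99 and 6.42), Btc (5.69, 5.10 and 5.85) and Egf (5.09, 5.27 and 4.96) were also expressed, Tgfa lay between, and Ereg, Nrg3 and Nrg4 were silent. At a score above 0.99 the expressed ligands numbered 3. Of 20 adaptors and effectors downstream 16 were expressed, 4 of them in the brightest decile: Nras (12.34, 12.43 and 12.31), Ptpn11 (12.45, 12.45 and 12.14), Shc1 (12.28, 12.34 and 12.29) and Errfi1, a feedback inhibitor of ErbB kinases (12.56, 11.88 and 12.56).

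Other receptor tyrosine kinases were represented by 20 expressed genes of 39, close to the share over all genes. After Axl and Pdgfra came Ryk, a Wnt receptor (11.23, 11.59 and 11.21), Ephb4 (10.82, 10.87 and 10.80) and the insulin-like growth factor receptor Igf1r (10.51, 10.52 and 10.75). Insr, Fgfr2, Flt1 and Epha2 had mean levels between 8.72 and 10.01. Ptk7, Epha1, Ddr1, Ddr2, Fgfr1, Met, Ltk, Mertk, Epha4, Fgfr3 and Tyro3 were expressed at means of 5.29 to 7.58. Flt1, a receptor of VEGF, was lower on array 2 (9.11) than on arrays 1 and 3 (10.09 and 9.88). Kit, Ret, Pdgfrb, Fgfr4, Mst1r and Ntrk2 were among 14 silent members. The platelet-derived growth factor gene Pdgfa (12.01, 11.91 and 11.84), a ligand of Pdgfra, was bright too.

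Nuclear receptors were expressed at a share of 16 in 36 (44.4%, near the 48% of all genes). Ppard, a fatty acid sensor, was the brightest and the steadiest of the leading members with 10.42, 10.37 and 10.31. Rxrb, the shared dimer partner, read 9.37, 9.90 and 9.11, the orphan receptor Nr2f6 8.67, 9.03 and 8.92, and Esrra 8.70, 9.08 and 8.69. Vdr, the vitamin D receptor, read 8.15, 9.30 and 9.09, lowest on array 1. The circadian repressor Nr1d2 followed with 8.26, 8.83 and 8.55. Rarg, Nr4a2, Rxra, Rara, Esr1, Nr3c1 (the glucocorticoid receptor), Nr1d1, Nr2f2, Hnf4a and Nr5a2 had means of 5.44 to 6.95. Esr2, Pgr, Ppara and Nr3c2 were silent.

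Receptors for cytokines and growth inhibitors were expressed in 23 of 30 cases. The receptors of TGF-beta led: Tgfbr2 at 12.68, 12.50 and 12.67 and Tgfbr1 at 11.67, 11.79 and 11.57. Bmpr2 (10.41, 10.27 and 10.63), Osmr, the oncostatin M receptor (10.28, 10.03 and 10.50), and Tgfbr3 (9.93, 10.52 and 10.33) followed. Il2ra, Il4ra, Il10ra, Cd40 and Ifnar1 were silent.

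Collagen and basement membrane genes were expressed at shares near that of all genes (48%), and genes of type I and III collagen were silent. Of 26 collagen genes 11 were expressed (42.3%). Col18a1, the core of a basement membrane proteoglycan, had 12.19, 12.30 and 11.92, Col6a1 11.57, 11.83 and 12.10, and Col4a1 11.17, 11.24 and 11.57. Col5a1 (11.05, 11.01 and 11.44), Col16a1 (10.96, 10.76 and 10.69) and Col4a2 (10.47, 10.77 and 10.90) followed, and no expressed collagen varied over 2-fold. Col4a3, Col4a4, Col5a2, Col5a3, Col8a2, Col10a1 and Col15a1 were silent besides Col1a1, Col1a2 and Col3a1. Among 13 laminin and basement membrane genes 6 were expressed (46.2%), led by Agrn (agrin; 12.18, 12.68 and 12.12), Hspg2 (perlecan; 11.88, 11.74 and 11.84) and Lamc1 (10.42, 10.42 and 9.94). Lama1, Lama4, Lamc3 and Nid2 were silent. Of 29 matrix glycoproteins and proteoglycans 17 were expressed (58.6%, against 48% of all genes). Galectins Lgals1 and Lgals3 (13.17, 13.20 and 13.67), the glypican Gpc1 (12.94, 13.06 and 12.86), Fn1, Ecm1 (11.47, 11.21 and 12.13) and Fbln2 (11.51, 11.54 and 11.34) were the brightest.

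Proteases that cut matrix and their inhibitors were expressed at 16 of 24 (66.7%, against 48% of all genes). Ctsb, a lysosomal protease, read 12.48, 12.85 and 13.02 and Timp2, an inhibitor of metalloproteases, 12.57, 12.60 and 13.03. Mmp3 had 12.26, 11.20 and 12.17, Mmp14, the membrane-anchored activator of Mmp2, 11.78, 11.67 and 11.71, and Mmp9 10.06, 10.53 and 10.60. Timp1 read 10.72, 10.45 and 10.07. Mmp2, Mmp7, Mmp8 and Mmp12 were silent. Of 24 integrin subunits 11 were expressed (45.8%, near the 48% of all genes). The brightest were Itga3 (12.50, 12.23 and 12.51), which binds laminin with Itgb1, and Itgb4 (11.91, 11.97 and 11.76), whose partner Itga6 read 7.74, 7.23 and 7.89.

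Genes of antigen presentation through MHC class I were expressed in 14 of 16 cases. B2m, the light chain, read 14.30, 14.23 and 14.22, H2-D1 12.47, 12.87 and 12.17, H2-T23 11.24, 11.29 and 11.01, and H2-K1 10.89, 10.79 and 10.65. The peptide-loading helper Pdia3 (11.92, 11.94 and 12.20) and the immunoproteasome subunits Psmb8 (11.25, 10.91 and 11.15) and Psmb10 (11.02, 10.03 and 10.62) were bright. Other members were dim. The peptide transporter gene Tap1 and the immunoproteasome subunit Psmb9 were near background, with means of 5.43 and 5.34, and H2-Q7 had a mean of 6.45. Erap1 lay between and H2-T22 was silent. None of the 14 expressed class I genes varied over 2-fold. Class II presentation was the opposite: 9 of 11 genes were silent, namely the class II transactivator Ciita, H2-Aa, H2-Ab1, H2-Ea, H2-Eb1, H2-DMb1, H2-DMb2, H2-Oa and H2-Ob, with H2-DMa (7.04, 7.40 and 7.52) and Cd74 (5.49, 6.08 and 5.69) expressed. Of 3 measured NKG2D ligands none was expressed, Raet1e and Raet1d were silent, and Ulbp1 lay between.

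Among 20 checkpoint and costimulatory ligands 9 were expressed (45%, near the 48% of all genes). Cd47, which tells macrophages not to engulf a cell, read 12.64, 12.82 and 12.91. Nt5e (CD73), which makes adenosine, read 12.75, 12.20 and 11.97. Cd276 (9.27, 9.52 and 9.78), Nectin2 (9.23, 9.48 and 8.49), Pvr (8.79, 8.30 and 8.77) and Lgals9 (8.41, 8.13 and 8.38) were of middle level. Cd274 (PD-L1) was dim and varied over 2-fold, with 6.23, 7.95 and 6.87. Pdcd1lg2, Vtcn1, Cd200, Cd70, Entpd1 and Tnfsf4 were silent.

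Most chemokine genes were not expressed. Of 30 chemokines 7 were expressed: Cxcl1, which draws neutrophils, at 10.62, 10.86 and 11.51, Cx3cl1 at 9.58, 8.59 and 9.35, Cxcl16 at 7.75, 8.41 and 8.18, Ccl5 at 8.19, 7.71 and 8.05, Ccl25 at 8.00, 7.28 and 8.06, and Ccl2 and Cxcl10 near background. Cxcl9, Cxcl11, Cxcl12, Ccl3 and Ccl20 were among 19 silent chemokines. Of 33 cytokines and growth factors 19 were expressed, led by Mif (15.13, 14.21 and 14.80), Pdgfa, and the endothelial growth factors Vegfa (11.10, 11.21 and 11.66), Vegfb (10.69, 11.45 and 10.71) and Vegfc (10.16, 10.27 and 10.55). Tslp, an epithelial cytokine, read 9.68, 9.51 and 10.27. Il6, Tnf, Il1a, Il1b, Il10, Ifnb1 and Ifng were silent.

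Interferon-stimulated genes were expressed in 14 of 23 cases (60.9%, against 48% of all genes), with Irf1 far in front at 12.28, 12.10 and 12.11. Gbp2 (9.79, 8.67 and 10.53) and Gbp3 (8.22, 6.91 and 9.02), which encode interferon-induced GTPases, were the 2 members that varied over 2-fold, both lowest on array 2. Oasl2 (8.79, 8.37 and 8.78), Irf9 (8.11, 8.39 and 8.51) and Ifi35 (8.22, 8.03 and 8.16) were steady, and Mx1, Mx2, Ifit1, Oas1a, Oas2 and Rsad2 were silent. Of 23 innate sensors and adaptors 12 were expressed (52.2%, near the 48% of all genes). They were led by the adaptor Myd88 (10.61, 10.62 and 10.31), the DNA sensor Cgas (9.98, 9.33 and 9.25) and the receptors Tlr4 (8.32, 8.84 and 8.76) and Tlr2 (8.16, 8.41 and 8.93). Aim2, Nlrp3 and Tlr9 were silent.

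Stress genes were widely expressed before any agent was added. Of 26 heat shock proteins and cochaperones 23 were expressed. The constitutive Hspa8 read 14.36, 14.45 and 14.52, the mitochondrial Hspa9 13.02, 13.20 and 12.75 and Hspd1 12.10, 11.71 and 11.96. The stress-induced Hspa1b was near background with a mean of 5.42, and Hspa1a was not detected on every array. Of 33 genes of the NRF2 system, which handles oxidants and iron, 26 were expressed (78.8%). Fth1, Prdx1 (13.87, 13.53 and 13.52), Ftl1 (13.39, 13.62 and 13.58) and Gstp1 (11.88, 11.92 and 11.66) were in front. Hmox1, Gsta1, Gsta2 and Gpx2 lay between, and Gsta3, Pgd and Mafk were silent. Of 18 apoptosis regulators 16 were expressed (88.9%), with Birc5 (11.75, 10.61 and 11.11), Mcl1 (10.63, 10.58 and 10.50) and Bcl2l11 (9.79, 10.38 and 10.51) in front.

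Genes of G1 and of DNA replication were expressed nearly throughout, and mitotic genes in most cases. Of 12 genes of G1 cyclins, their kinases and MYC 11 were expressed. Ccnd1, cyclin D1, read 14.21, 13.49 and 13.35, Cdk4 11.35, 11.51 and 11.30, and Myc 7.40, 7.74 and 7.32. Cdk2 (10.79, 10.13 and 10.32), E2f1 (10.80, 10.04 and 10.01) and Ccnd3 (10.16, 9.45 and 9.54) were of middle level. Ccnd2 (7.71, 7.51 and 7.01), Cdk6 (6.78, 6.84 and 6.58), Ccne1 (5.98, 5.12 and 5.17) and Mycl (5.37, 5.45 and 5.30) were dim, and Mycn was silent. Of 23 DNA replication genes 22 were expressed (95.7%), and of 22 mitotic genes 16 (72.7%), with 4 silent. Of 14 genes of the p53 pathway and tumour suppressors 11 were expressed: Gadd45a (10.11, 11.26 and 10.44) and Mdm2, a p53 target and antagonist (9.74, 9.59 and 9.27), were the brightest, and Cdkn2a, Cdkn2b and Pmaip1 were silent. Of 15 sterol synthesis genes 13 were expressed, led by Sqle (10.01, 9.93 and 10.16) and Fdps (9.15, 8.81 and 8.59).

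Several gene families, chosen after values were seen, were nearly all silent. Of 1078 olfactory receptor genes, 1013 were silent and 14 passed as expressed (1.30%), and of 173 vomeronasal receptors 166 were silent. All but 2 of 42 keratin-associated protein genes and all but 3 of 42 beta-defensin genes were silent, with 0 expressed in either family. Potassium channels were expressed in 8 of 88 cases, cytochrome P450 genes in 6 of 70, protocadherins in 7 of 65 and Hox genes in 10 of 39. Solute carriers were expressed in 153 of 356 cases (43.0%), and genes named Zfp in 201 of 331 (60.7%). Of translation and protein turnover genes, 72 of 76 mitochondrial ribosomal protein genes, 34 of 40 proteasome subunits and 27 of 31 aminoacyl tRNA synthetases were expressed.

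Most expressed genes varied by less than 2-fold between the 3 untreated cultures. The SD of an expressed gene over the 3 arrays had a median of 0.211 in log2, with quartiles at 0.132 and 0.316. Pearson's r across expressed genes, which are not independent replicates and whose differences in brightness dominate it, was 0.977 to 0.983 between pairs of arrays. A range over 2-fold was found in 504 expressed genes (5.51%), and 34 of these exceeded 4-fold. Array 2 took the extreme most often, as the highest in 211 and the lowest in 199 of the 504. Without background correction, 234 genes ranged over 2-fold, and between 2 arrays only, 267 did without array 1, 149 without array 2 and 253 without array 3. The 10 largest ranges were those of Chac1, Angptl6, Chchd10, Cdsn, Mthfd2, Ankrd37, Mgarp, Mmp10, Car9 and Il33, between 6.34-fold and 12.5-fold.

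Glycolysis and hypoxia genes were lowest on array 2. The 18 expressed members of 21 averaged 10.95, 10.09 and 11.26 on the 3 arrays, 12 of them ranged over 2-fold, and 14 were lowest on array 2. Without array 2, only 1 ranged over 2-fold, but leaving out the lowest array narrows a range by construction. Over all expressed genes the count fell from 504 to 149 in the same way. Car9, the carbonic anhydrase that hypoxia induces, read 11.61, 9.22 and 11.97, and Pgk1, a glycolytic kinase, 13.48, 11.61 and 13.92. Ldha (lactate dehydrogenase; 14.44, 13.17 and 14.25), Tpi1 (13.65, 12.21 and 13.32), Aldoa (13.09, 11.85 and 13.44) and the glucose transporter Slc2a1 (11.76, 10.56 and 11.90) were also lowest on array 2. Gapdh itself read 13.55, 12.85 and 14.07. Hif1a, whose product is mainly controlled as a protein, read 8.63, 9.01 and 9.11 and did not follow. Outside the list, Ankrd37, a hypoxia-induced gene, read 8.98, 6.60 and 9.50.

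Windows are printed for 3 of these genes, chosen because their levels separate array 2 from the others and their windows hold ACGTG. Capitals mark ACGTG on either strand, the core of the motif bound by hypoxia-inducible factors. They are the 250 bases before the RefSeq start, build GRCm38.p6.
Car9 (chr4:43506776-43507025, plus strand): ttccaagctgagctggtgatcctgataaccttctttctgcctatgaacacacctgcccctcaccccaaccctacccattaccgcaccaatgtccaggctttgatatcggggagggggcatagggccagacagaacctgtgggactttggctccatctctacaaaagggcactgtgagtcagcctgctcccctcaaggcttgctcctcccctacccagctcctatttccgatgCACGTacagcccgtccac
Ankrd37 (chr8:45999851-46000100, minus strand): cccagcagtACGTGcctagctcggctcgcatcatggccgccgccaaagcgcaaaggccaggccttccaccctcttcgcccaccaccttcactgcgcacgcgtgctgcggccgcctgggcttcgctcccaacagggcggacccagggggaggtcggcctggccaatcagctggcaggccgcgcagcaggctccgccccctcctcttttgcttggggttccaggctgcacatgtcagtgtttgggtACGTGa
Pgk1 (chrX:106186850-106187099, plus strand): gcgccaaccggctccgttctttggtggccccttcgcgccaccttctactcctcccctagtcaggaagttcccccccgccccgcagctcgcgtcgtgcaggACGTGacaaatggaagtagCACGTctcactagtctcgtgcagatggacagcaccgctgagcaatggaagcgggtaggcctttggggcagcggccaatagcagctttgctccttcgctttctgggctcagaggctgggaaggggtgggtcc
ACGTG stood in 12 of the 28 windows of expressed glycolysis and hypoxia genes (42.9%), in 22.2% of the windows of all expressed genes and in 18.4% of all windows. The windows of Aldoc (9.01, 7.82 and 10.37) and Car12 (10.58, 8.68 and 10.81), also lowest on array 2, hold no ACGTG. Among genes that differed between replicate numbers in the test below, it stood in 2 of 17 windows (11.8%). A part of the motif in these levels was not tested.

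The stress response to unfolded proteins and to amino acid shortage ran the other way. Its 25 expressed members of 29 averaged 8.94, 9.46 and 8.60, 9 ranged over 2-fold, and 18 were highest on array 2. Without array 2, 3 members ranged over 2-fold, and without array 3, 5 did, a narrowing that leaving out an extreme array brings by construction. Chac1, which breaks down glutathione, read 10.17, 11.19 and 7.54, the widest range of all expressed genes at 12.5-fold. Asns, which makes asparagine, read 11.07, 12.15 and 9.88, Trib3 10.12, 12.05 and 9.50, and the transcription factor Atf4 that controls them 11.76, 12.20 and 10.28. Ddit3 (CHOP) read 7.02, 9.57 and 7.06. Mthfd2, a mitochondrial folate enzyme outside the list, had 10.30, 10.74 and 7.83. Calr, a chaperone of the endoplasmic reticulum, read 10.16, 10.21 and 10.09, and Hspa5 (BiP) 7.17, 7.33 and 7.51. Manf and Eif2ak3 were silent.

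For Chac1, the gene with the widest range, and Asns, a further member whose window holds the motif, the same kind of window is printed; capitals mark TGATGNAA on either strand, the core of the element bound by ATF4.
Chac1 (chr2:119350992-119351241, plus strand): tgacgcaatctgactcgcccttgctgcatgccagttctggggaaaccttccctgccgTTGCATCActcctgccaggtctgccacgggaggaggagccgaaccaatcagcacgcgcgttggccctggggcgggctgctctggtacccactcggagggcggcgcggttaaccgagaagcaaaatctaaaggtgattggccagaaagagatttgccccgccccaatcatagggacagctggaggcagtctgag
Asns (chr6:7693210-7693459, minus strand): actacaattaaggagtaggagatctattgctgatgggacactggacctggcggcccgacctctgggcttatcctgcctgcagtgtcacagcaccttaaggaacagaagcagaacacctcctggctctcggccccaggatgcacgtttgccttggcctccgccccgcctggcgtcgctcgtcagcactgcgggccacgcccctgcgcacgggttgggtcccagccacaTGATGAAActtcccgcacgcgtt
TGATGNAA stood in 3 of the 23 windows of expressed members of that list (13.0%), in 1.85% of the windows of all expressed genes and in 2.76% of all windows. The windows of Trib3, Atf4, Ddit3, Atf5 and Mthfd2 hold no match.

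Replication genes were highest on array 1. The 22 expressed members averaged 10.30, 9.31 and 9.48; 13 ranged over 2-fold and 21 were highest on array 1. Mcm4, a subunit of the replicative helicase, read 12.51, 11.47 and 11.77. Tyms, thymidylate synthase, read 11.88, 10.42 and 10.56 and Ccne2, cyclin E2, from the G1 list, 8.47, 6.34 and 7.07. Without array 1, 1 replication gene ranged over 2-fold, and without array 2, 6 did. Here, and for the mitotic genes below, leaving out an extreme array narrows a range by construction. The 16 expressed mitotic genes averaged 10.46, 9.68 and 10.16, and all 16 were highest on array 1, as in Cdk1 (11.63, 10.40 and 11.50). Of these 16, 3 ranged over 2-fold, 1 without array 1 and 0 without array 2. In contrast, expressed ribosomal protein genes averaged 13.52, 13.72 and 13.59. The array that was lowest for glycolysis and hypoxia genes and highest for the stress response, and the array that was highest for replication genes, were the same without background correction, without normalization between arrays and with the 3 arrays normalized alone.

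**Figure D4:**
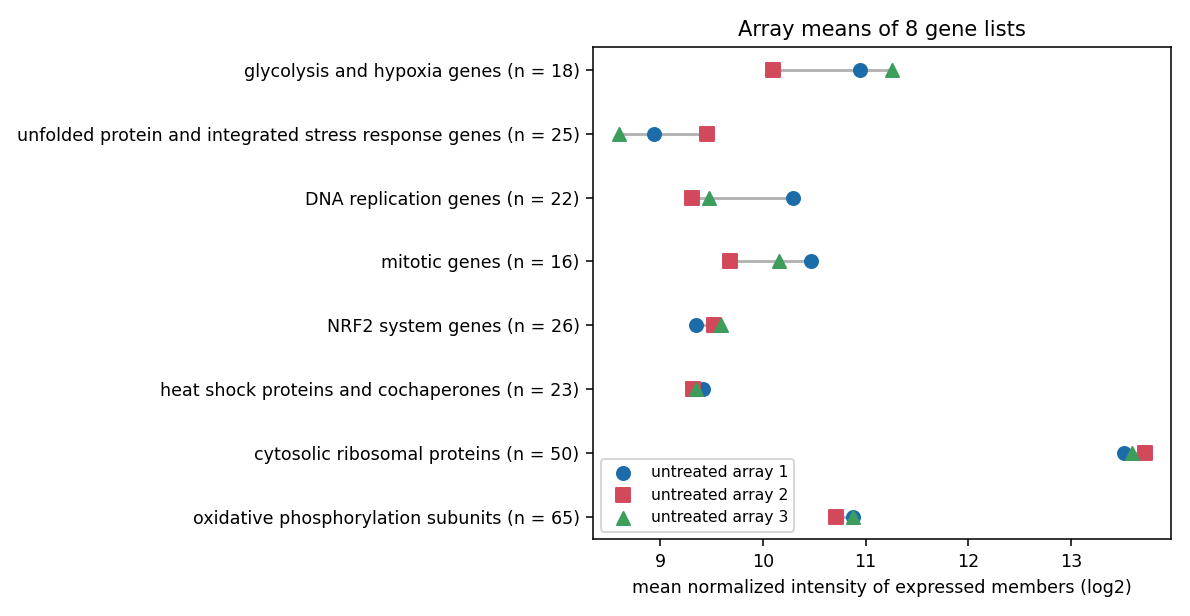
Mean normalized intensity (log2, x axis) of the expressed members of 8 gene lists on untreated arrays 1, 2 and 3, 1 point per array, with the number of members. Glycolysis and hypoxia genes are lowest and stress response genes highest on array 2, replication genes are highest on array 1, and the other 4 non-mitotic lists stay within a narrow band.

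Whether a replicate number carries the same differences in the withaferin A arrays was asked with limma's moderated F test over all 6 arrays, with a term for the agent. Of 9741 genes tested, 18 differed between replicate numbers at a Benjamini-Hochberg adjusted p under 0.05 (0.185%), and 961 had an unadjusted p under 0.05. Of the 18, 14 were expressed by the rule used here. On the untreated arrays 16 of them were lowest on array 2 and 17 highest on array 3, and 17 kept the same order of numbers in the withaferin A arrays. The test covers both groups and so selects genes whose order agrees between them, which makes this agreement no separate evidence of recurrence. The count of genes called was 0 without a filter on dim probes, 11 without background correction and 40 without normalization between arrays. Leaving out any array leaves its replicate number with a single array. Such a fit cannot show recurrence for that number, so its counts are not given here.

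Of the 18 expressed glycolysis and hypoxia genes, all of them tested, 2 were among the 18 genes called, Car9 and Aldoc. Car9 had log2 levels of 11.61, 9.22 and 11.97 in untreated cells and 11.46, 9.35 and 12.12 after withaferin A (adjusted p = 0.00209, limma). Mgarp, which encodes a mitochondrial protein, had 6.93, 5.55 and 8.42 in untreated cells and 7.01, 5.26 and 8.38 after withaferin A. Aldoc, Car12, Ndrg1, Bhlhe40 and Adm were lowest in replicate 2 and highest in replicate 3 in both groups. Krt19 read 6.14, 4.65 and 7.91 in untreated cells and 6.25, 4.83 and 8.68 after withaferin A (adjusted p = 0.00209, limma). Csn3 ran the other way, with 9.0, 9.91 and 7.35 in untreated cells and 9.02, 9.25 and 6.93 after withaferin A. The interferon-induced Gbp2 and Gbp2b, Tnfrsf9 (a costimulatory receptor), Upk3bl, Espn, Plxdc1, Lamb3, Bsg and D17H6S56E-5 make up the rest, and all were highest in untreated replicate 3. Chac1 did not pass, with 12.11, 12.19 and 10.94 after withaferin A and an adjusted p of 0.203 (limma).

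**Figure D5:**
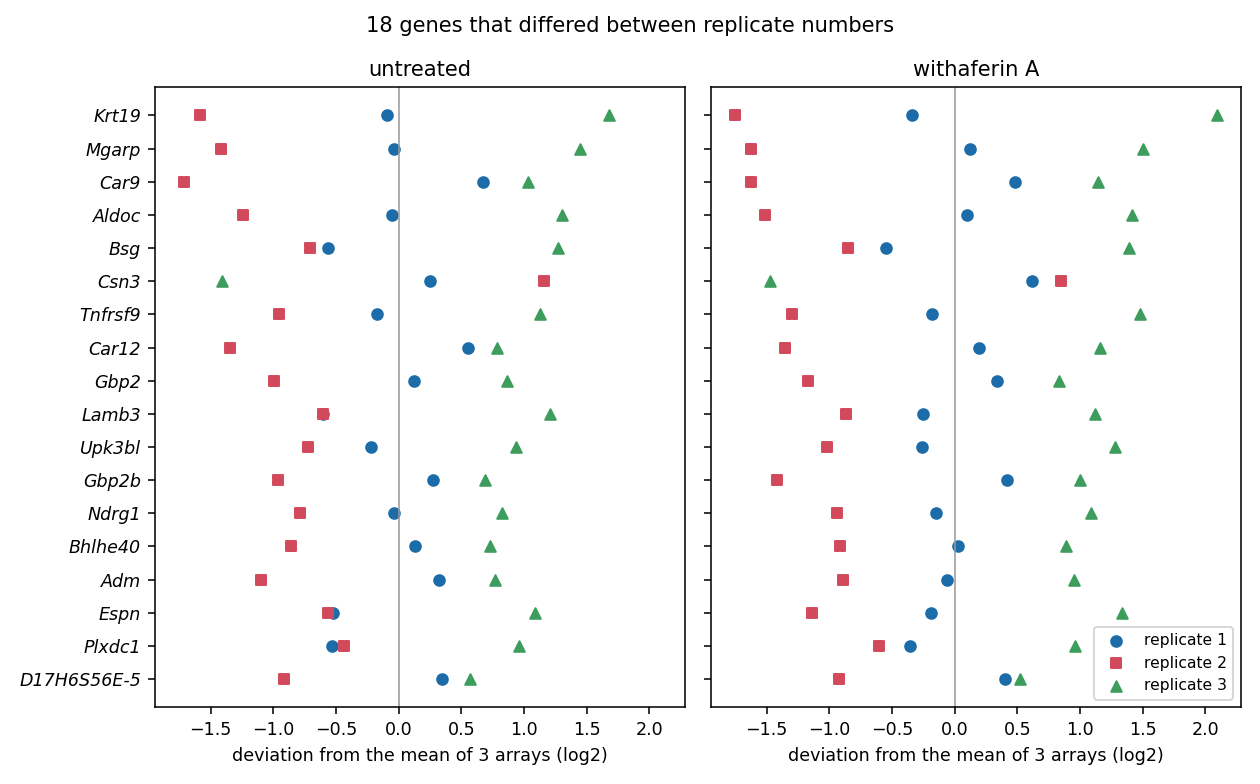
Deviation of each array from the mean of its group's 3 arrays (log2, x axis) for the 18 genes called for the replicate number, in untreated cells (left) and withaferin A cells (right), 1 point per array. Replicate 3 lies to the right for every gene but Csn3, in both panels, but the genes were called by a test that covers both groups.

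Over all expressed genes the recurrence was partial. The difference of replicate 1 minus 3 in untreated cells correlated with that in the withaferin A arrays at r = 0.489 over 9141 expressed genes, that of 2 minus 3 at 0.132, and that of 1 minus 2 at -0.0597. These are descriptions across genes, and the differences compared share no array.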

How the data were processed

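Biotin-labelled total RNA of 3 untreated and 3 withaferin A cultures was hybridised to an Illumina mouse bead array. The authors deposited 1 intensity per probe and array, named as non-normalized. Its medians on the untreated arrays were 81.9, 81.3 and 77.9. Whether it had been scaled between arrays or reduced by a background was not tested. Per the file headers each intensity has a detection p, but the deposited score is higher for brighter probes and was taken as 1 minus p, in steps of 1 over 936 (to within 5.04e-06). The scanner's software is not stated in the files used here. The deposited value table was centred within same-numbered pairs, which removes levels, and was not used.

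Intensities were background-corrected (normexp, negative controls inferred from the detection p), offset by 16, quantile-normalized over 6 arrays and taken to log2 with neqc (limma 3.58.1, R 4.3.3). Of 45281 probes, 34885 had 1 symbol in the platform annotation, 34807 of them found by gene ID in a GRCm38.p6 gene table; 10396 were unnamed. A gene was represented by its probe with the highest mean on untreated arrays. Of 5684 expressed genes with several probes, 2647 had another probe that no array detected. The F test (lmFit, eBayes) covered 19077 probes detected on at least 3 of 6 arrays, adjusted by Benjamini-Hochberg, and was tested on simulated data; the number of arrays limits precision. No treatment test was made.

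The untreated arrays, the 49 gene lists and their members were chosen with earlier results of these data known. The rule for named genes admits the label markers, the 20 brightest, up to 6 brightest expressed members and silent members of each list, every member of lists of 12 or fewer, expressed receptors, the 10 largest ranges and the 10 smallest p; of the brightest and the silent members of longer lists, and of the ribosomal proteins among the 20 brightest, only some are printed. Others were chosen after their values were seen. Alternatives covered score thresholds, background correction, normalization, probe choice, filters, the variance model, the replicate number as a block and leaving out each array. Promoter windows come from RefSeq. Some genes are not analysed here.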

Additional observations from a re-analysis of the deposited data

Results flagged for a closer look

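Probes without a symbol of their own entered none of the lists. Of 10396 such probes, 2662 were detected on all 3 untreated arrays, a signal in data not described above. Groups of 3 arrays were too small for a test of single outlying samples.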

How the results depend on the processing

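Counts of expressed genes, silent genes, list members in total and the 20 brightest genes stayed within 1.5 times under every alternative tried for them; without reduction to 1 probe a gene, 16 of the 20 remained. Among single lists, counts of basal keratins, ErbB ligands, NKG2D ligands, neural, muscle and germline genes moved further under another score rule or with an array left out. The median SD between untreated arrays (0.211) was 0.161 without background correction, 0.230 without normalization between arrays and 0.165 to 0.181 with an array left out. The median residual SD over 6 arrays (0.220) was 0.167 without background correction and 0.206 to 0.216 with an untreated array left out. With the replicate block it was 0.189. Deviations of same-numbered arrays correlated at 0.317, -0.0401 and 0.342 for numbers 1 to 3. Untreated array 1 correlated with withaferin A array 2 at 0.288, almost as with its own number, and with withaferin A array 3 at -0.424. The labels do not say that same-numbered arrays share a culture, and the numbers were not taken as pairs. The 18 genes that differed between replicate numbers became 11 without background correction, 40 without normalization, 0 without a filter on dim probes (limma; 1779 genes at an unadjusted p under 0.05), 11 among probes detected on all 6 arrays, and 12 to 986 with an array left out. Genes that ranged over 2-fold (504) numbered 234 without background correction and 149 to 267 with an array left out, alternatives chosen after seeing the data. Fewer arrays narrow a range by construction; the other causes were not tested. Levels near background are bounds, and each silent call rests on the probes of this array.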
